A study of Mus musculus with 4 samples.

Results

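The 39 *Hox* genes of the mouse, taken as every measured gene whose symbol is Hox followed by a cluster letter (a to d) and a number, were followed through single-cell RNA sequencing (scRNAseq) of embryonic hearts at mid-gestation (E10.5). They were 39 of the 32285 genes in the deposited matrices, with 11 in the *Hoxa* cluster, 10 in *Hoxb*, 9 in *Hoxc* and 9 in *Hoxd*. The 4 libraries, named here by the numbers that the labels give, were compared. Libraries 5 and 7 were the controls, which carried the floxed *Tie2* (*Tek*) allele without Cre (Tie2flfl). Libraries 6 and 8 were *Tie2-cko*, in which the same allele was combined with a knock-in *Nfatc1Cre* (Nfatcre-Tie2flfl). *Tie2* encodes a receptor tyrosine kinase of the endothelium, and Cre under *Nfatc1* acts in endocardial cells (EdCs) and in the cells that derive from them, so that other cell types of the *Tie2-cko* libraries were not its target. The dissection took the whole cardiogenic region, which holds tissue beside the heart. By the methods, a pair of hearts per genotype was taken at each stage from a shared litter, and controls and mutants were matched by somite number. The sources do not say which libraries match. P-values between genotypes measure the spread between these libraries, and those between classes the spread of a difference within libraries. In both, edgeR estimates the spread with information shared over genes.

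*Hox* genes encode homeodomain transcription factors that give cells of the trunk their position along the head-to-tail axis. The genes stand in 4 clusters, and copies that occupy the same place in different clusters form a paralog group. Low group numbers lie at the 3′ end of a cluster and are switched on early and far forward in the embryo, whereas high group numbers lie at the 5′ end and mark the caudal trunk, limbs and genital region. Retinoic acid induces the 3′ genes, factors of the Cdx family act on the middle ones, and Pbx and Meis proteins of the TALE homeodomain class bind DNA together with Hox proteins. In the heart region, early *Hox* genes are known from second heart field progenitors that build the arterial and venous poles, from the neural crest of the pharyngeal arches (*Hoxa2*, *Hoxa3*), from the mesenchyme of foregut and lung (*Hoxa5*) and from hindbrain and vagal neurons (*Hoxb1* to *Hoxb5*).

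Promoter sequences were available for 22 of the 39 genes, and 4 are shown because these genes led, or were missing from, the cell types described next. They run 5′ to 3′ on the strand of the gene (RefSeq, GRCm38.p6), from 250 bases before the transcription start to 50 bases after it. *Hoxa5* spans chr6:52204538-52204837 on the minus strand, *Hoxb4* chr11:96318017-96318316, *Hoxd4* chr2:74721728-74722027 and *Hoxb1* chr11:96365508-96365807, all 3 on the plus strand. Capitals mark AGGTCA or its reverse complement TGACCT, the hexamer that retinoic acid receptors bind, and TGATNNAT (searched on both strands), a letter pattern of joint Pbx-Hox sites.
Hoxa5: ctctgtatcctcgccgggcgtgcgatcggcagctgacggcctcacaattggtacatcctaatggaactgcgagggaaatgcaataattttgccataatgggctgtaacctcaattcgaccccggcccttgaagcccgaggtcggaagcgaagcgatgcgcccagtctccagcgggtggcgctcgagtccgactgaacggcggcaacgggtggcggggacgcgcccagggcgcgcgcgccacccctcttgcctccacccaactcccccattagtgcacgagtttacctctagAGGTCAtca
Hoxb4: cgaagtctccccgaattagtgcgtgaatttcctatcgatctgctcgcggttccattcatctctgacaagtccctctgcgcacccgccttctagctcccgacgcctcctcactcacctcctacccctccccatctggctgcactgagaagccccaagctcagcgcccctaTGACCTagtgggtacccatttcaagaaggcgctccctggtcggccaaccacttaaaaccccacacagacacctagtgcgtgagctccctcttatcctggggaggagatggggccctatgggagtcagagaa
Hoxd4: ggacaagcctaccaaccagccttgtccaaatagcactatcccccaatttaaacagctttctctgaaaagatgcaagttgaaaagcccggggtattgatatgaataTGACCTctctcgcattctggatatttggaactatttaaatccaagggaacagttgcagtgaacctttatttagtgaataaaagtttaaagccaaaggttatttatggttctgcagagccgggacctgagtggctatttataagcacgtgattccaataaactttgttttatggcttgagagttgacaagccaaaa
Hoxb1: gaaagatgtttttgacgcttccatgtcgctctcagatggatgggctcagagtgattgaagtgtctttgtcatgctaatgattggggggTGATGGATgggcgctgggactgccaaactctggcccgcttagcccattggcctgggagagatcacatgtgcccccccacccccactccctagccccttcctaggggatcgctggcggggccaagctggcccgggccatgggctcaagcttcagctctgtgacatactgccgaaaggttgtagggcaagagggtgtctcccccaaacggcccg
The hexamer began 42 bases after the start in *Hoxa5*, and 81 and 145 bases before it in *Hoxb4* and *Hoxd4* on the opposite strand. It occurred in 7 of the 24 *Hox* promoter windows and in 16.3% of all 32851 windows of the same length. The Pbx-Hox letters occurred in 4 *Hox* windows, among them *Hoxb1* at 162 bases before the start (TGATGGAT), and in 8.85% of all windows. A match describes letters only. Median GC content was 57.6% in the *Hox* windows and 52.7% in all windows.

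After filtering, 33419 cells remained, at medians of 14878 to 25875 UMIs (unique molecular identifiers, each standing for 1 captured transcript) per cell and library. Clustering was done without *Hox* genes, so that they could not define the classes, and 22 of 26 clusters were named from marker lists. A name means only that a cluster resembled that type. Every named cluster had at least 6 of its listed markers. Foregut mesenchyme had 9 of 9 (*Barx1* and *Foxf1* among its leading genes), septum transversum mesenchyme 8 of 8 (*Lhx2*, *Hlx*), pharyngeal mesenchyme 7 of 9 (*Prrx1*) and neuronal cells 8 of 8 (*Nefm*, *Neurod1*). The neuronal cluster also held 6 markers of neural crest and glia, with *Sox10* among its leading genes, and the macrophage cluster held 5 of the megakaryocyte list. Cardiac cells are the cardiomyocytes (CMs), EdCs, cushion mesenchymal cells (MCs) and epicardial cells together. Non-cardiac named cells made up 37.5% and 43.7% of libraries 5 and 6 but 17.2% and 15.4% of libraries 7 and 8. This split runs across the genotypes. All 4 libraries are labelled E10.5. Which of them were matched by somite number, and whether the litter named in the methods covers all 4, is not given in the sources used here. Dissection, exact stage and litter therefore cannot be told apart for this split. Between 29 and 62 barcodes were shared by any pair of libraries, which is at most 0.521% of the smaller library. As a check of the labels, the level of *Tek* in EdCs was 0.888 (library 5) and 1.31 (library 7) UMIs per 10000 without Cre, against 0.216 (library 6) and 0.186 (library 8) in *Tie2-cko*. It fell by 2.48 ± 0.198 (SE) on the log2 scale (edgeR's quasi-likelihood test, Benjamini-Hochberg adjusted p = 0.0416), while in vascular endothelial cells it lay between 0.642 and 0.785 in all 4 libraries.

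Of the 39 genes, 33 had at least 1 UMI in the kept cells and 6 had none (*Hoxb13*, *Hoxc10*, *Hoxc11*, *Hoxc12*, *Hoxd11* and *Hoxd12*). The counts fell off steeply along the clusters. The 8 genes of paralog groups 1 to 3 held 38.9% of the 44888 *Hox* UMIs, the 15 genes of groups 4 to 8 held 60.3%, and the 16 genes of groups 9 to 13 held 371 UMIs, or 0.826%. By cluster, *Hoxb* held 53.9%, *Hoxa* 35.6%, *Hoxc* 7.15% and *Hoxd* 3.42%. *Hoxb4* was the most counted gene with 8311 UMIs, followed by *Hoxb2* with 8082 and *Hoxa5* with 5279. A level, here and below, is the mean over the cells of a class of a gene's UMIs per 10000 UMIs of the cell. A UMI tags 1 end of a transcript, so gene length does not scale the value. By a rule of at least 0.05 UMIs per 10000 in at least 1 class, 18 genes were described in every library. The other 21 stayed below it, with *Hoxa9* in vascular endothelial cells closest at 0.0487. *Hoxd3* and *Hoxd4* share 9.26% and 13.2% of their exonic bases with each other on the same strand (GENCODE, GRCm38), so part of their counts could be split between them, and the only other overlap among the 39 genes was between *Hoxc5* and *Hoxc10*.

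The summed level of the 39 genes spanned more than 2 orders of magnitude between cell classes. Foregut mesenchyme stood highest, at 6.55 and 7.75 UMIs per 10000 in libraries 5 and 6, the libraries that held this class (524 and 552 cells, against 1 and 3 cells in libraries 7 and 8). Neuronal cells followed at 4.47 ± 1.34 (SD, n = 4) and septum transversum mesenchyme at 4.30 ± 1.33 (n = 4), and these neighbours overlapped. *Pax9* epithelium stood at 2.34 ± 0.756 and pharyngeal mesenchyme at 2.05 ± 0.483 (n = 4 each). Vascular endothelial cells reached 1.27 ± 0.588 (n = 4) and the other epithelium 1.10 (n = 2). Heart classes were lower. CMs of a *Shox2* cluster reached 0.314 ± 0.124, epicardial cells 0.196 ± 0.0481, CMs of a *Bmp4* cluster 0.185 ± 0.0242, EdCs 0.146 ± 0.0536 and cushion MCs 0.115 ± 0.0434 (n = 4 each). Hepatic cells (0.0904 ± 0.0779, n = 3) and macrophages (0.0710 ± 0.0383, n = 4) were lower still. Chamber CMs at 0.0492 ± 0.0263 stood next to red blood cells at 0.0263 ± 0.0133. Of the 15 neighbouring pairs in this order 12 overlapped in their ranges over libraries. The gaps lay below foregut mesenchyme, below septum transversum mesenchyme, and between the other epithelium and the *Shox2* CMs. All heart classes lay below the last gap, and so did hepatic cells, macrophages and red blood cells.

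**Figure D1:**
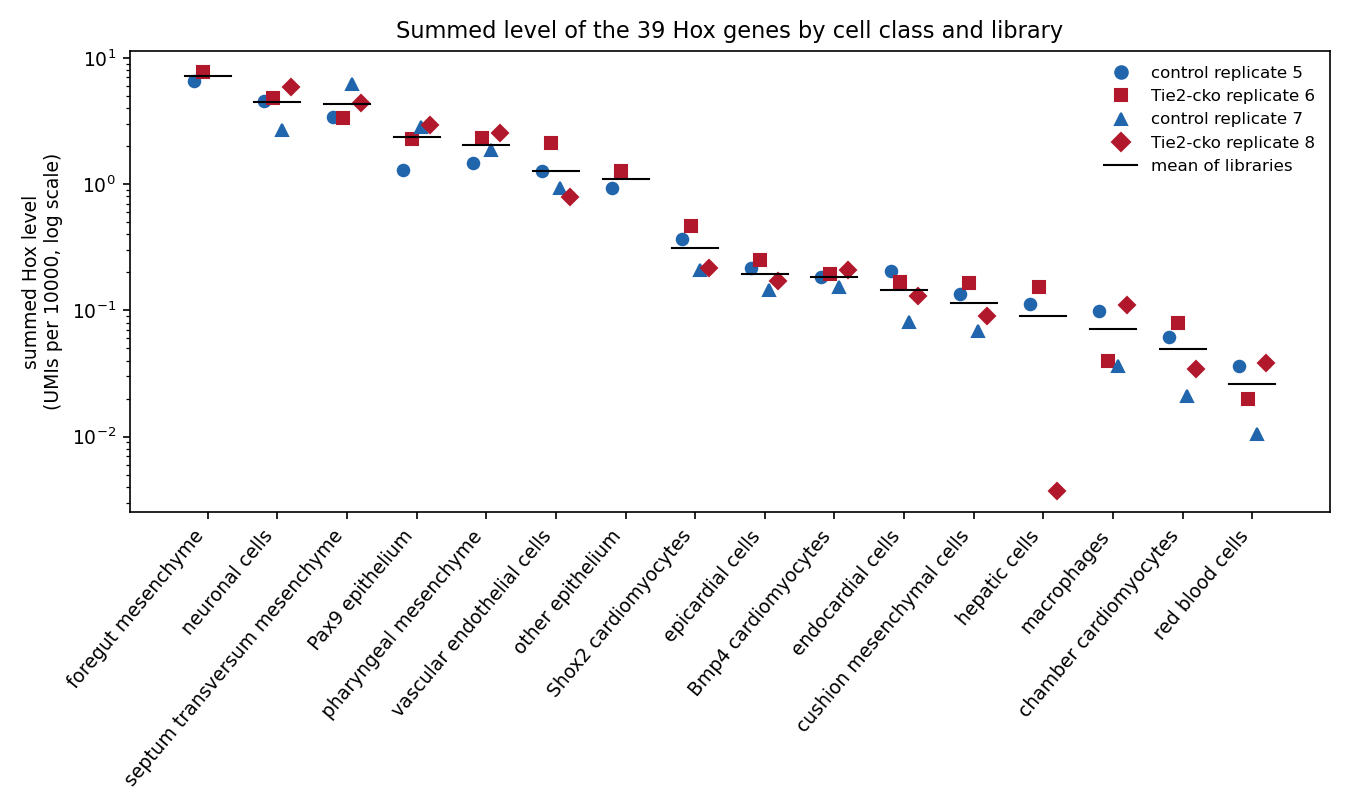
Summed level of the 39 *Hox* genes (UMIs per 10000, log axis) in 16 cell classes, with 1 symbol per library (blue control, red *Tie2-cko*) and a black line at the mean of the libraries. The 7 classes highest in the order stand between 0.791 and 7.75. Heart classes, hepatic cells, macrophages and red blood cells stand at 0.464 or below.

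Single cells showed the same grading. With every cell thinned to 5500 UMIs (5241 shallower cells left out), a *Hox* UMI was seen in 92.0% and 95.4% of foregut mesenchyme cells of libraries 5 and 6. The mean share (± SD, n = 4) was 86.0% ± 4.36 in neuronal cells and 80.2% ± 4.42 in septum transversum mesenchyme. It was 58.1% ± 10.6 in *Pax9* epithelium, 56.6% ± 9.16 in pharyngeal mesenchyme and 41.8% ± 14.6 in vascular endothelial cells. In *Shox2* CMs the share was 12.9% ± 3.35, and in chamber CMs 2.17% ± 0.969. Red blood cells, which should lack *Hox* transcripts and so show what free RNA gives, had 1.10% ± 0.627 at the same depth. Unthinned, at median depths of 22812 to 60281 UMIs, the share in red blood cells was 2.29% to 11.1%. Chamber CMs of library 8 held 1.03 times the *Hox* UMIs per cell of red blood cells in the same library and are read as background there, whereas the ratio was 2.07 to 2.89 in the other 3 libraries. A thinned cell of foregut mesenchyme showed 2.92 different *Hox* genes on average, and 75.8% of such cells showed at least 2. Neuronal cells showed 1.86 and septum transversum cells 1.79 different genes.

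**Figure D2:**
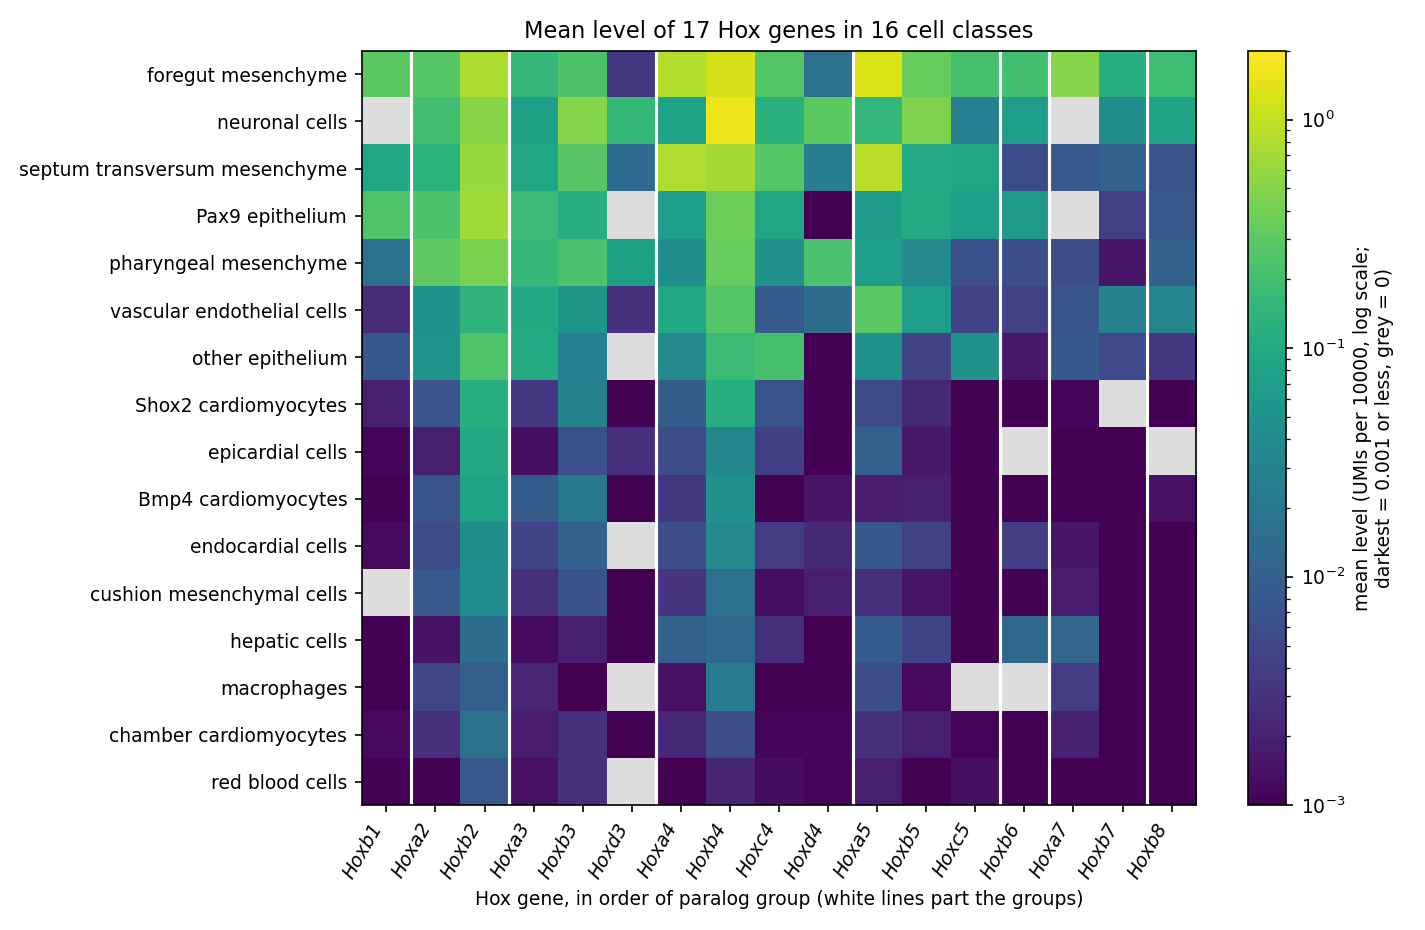
Mean level (UMIs per 10000, log colour scale, grey where no UMI was counted) of 17 of the 18 *Hox* genes that reached 0.05 in at least 1 class, with cell classes in rows by summed level and genes in columns by paralog group. The foregut mesenchyme row is bright through *Hoxb8*, whereas the other rows darken beyond group 5, with *Hoxb6* and *Hoxb8* in neuronal cells (0.0692 and 0.0797) and *Hoxb6* in *Pax9* epithelium (0.0607) as exceptions above 0.05.

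In foregut mesenchyme, the connective tissue around the gut tube and lung buds, 16 of the 18 genes reached 0.05 and expression ran to paralog group 8. *Hoxa5*, which patterns lung and foregut mesenchyme, led with 1.21 and 1.40 UMIs per 10000 in libraries 5 and 6. *Hoxb4* stood at 1.11 and 1.36, *Hoxa4* at 0.758 and 0.917, and *Hoxb2* at 0.713 and 0.879. Both libraries gave the same order of these 4 genes. *Hoxa7*, a gene of the trunk, stood at 0.536 and 0.480, and 79.6% of its 1698 UMIs in the series lay in this class. *Hoxb6* (0.195 and 0.209), *Hoxb8* (0.186 and 0.189) and *Hoxb7* (0.127 and 0.109) also had between 60.9% and 67.6% of their UMIs there. Along the *Hoxa* cluster the series was not unbroken. *Hoxa6*, between *Hoxa5* and *Hoxa7*, had a mean level of only 0.024, and levels dropped again beyond *Hoxa7*. *Hoxa9*, the next gene 5′ of *Hoxa7*, stood at 0.0151 and 0.0142, and groups 9 to 13 together at 0.0233. Of the 18 genes, 14 had more of their UMIs in foregut mesenchyme than in any other class. The others were *Hoxa2*, *Hoxd3* and *Hoxd4*, which led in pharyngeal mesenchyme, and *Hoxb3*, which led in septum transversum mesenchyme. UMI sums also grow with the number and depth of a class's cells. By mean level, *Hoxb3*, *Hoxb4*, *Hoxb5*, *Hoxd3* and *Hoxd4* stood highest in neuronal cells. *Hoxa3* did so in *Pax9* epithelium and *Hoxc4* in septum transversum mesenchyme. *Hoxd* genes were close to missing from foregut mesenchyme, with 0.401% of its *Hox* level.

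**Figure D3:**
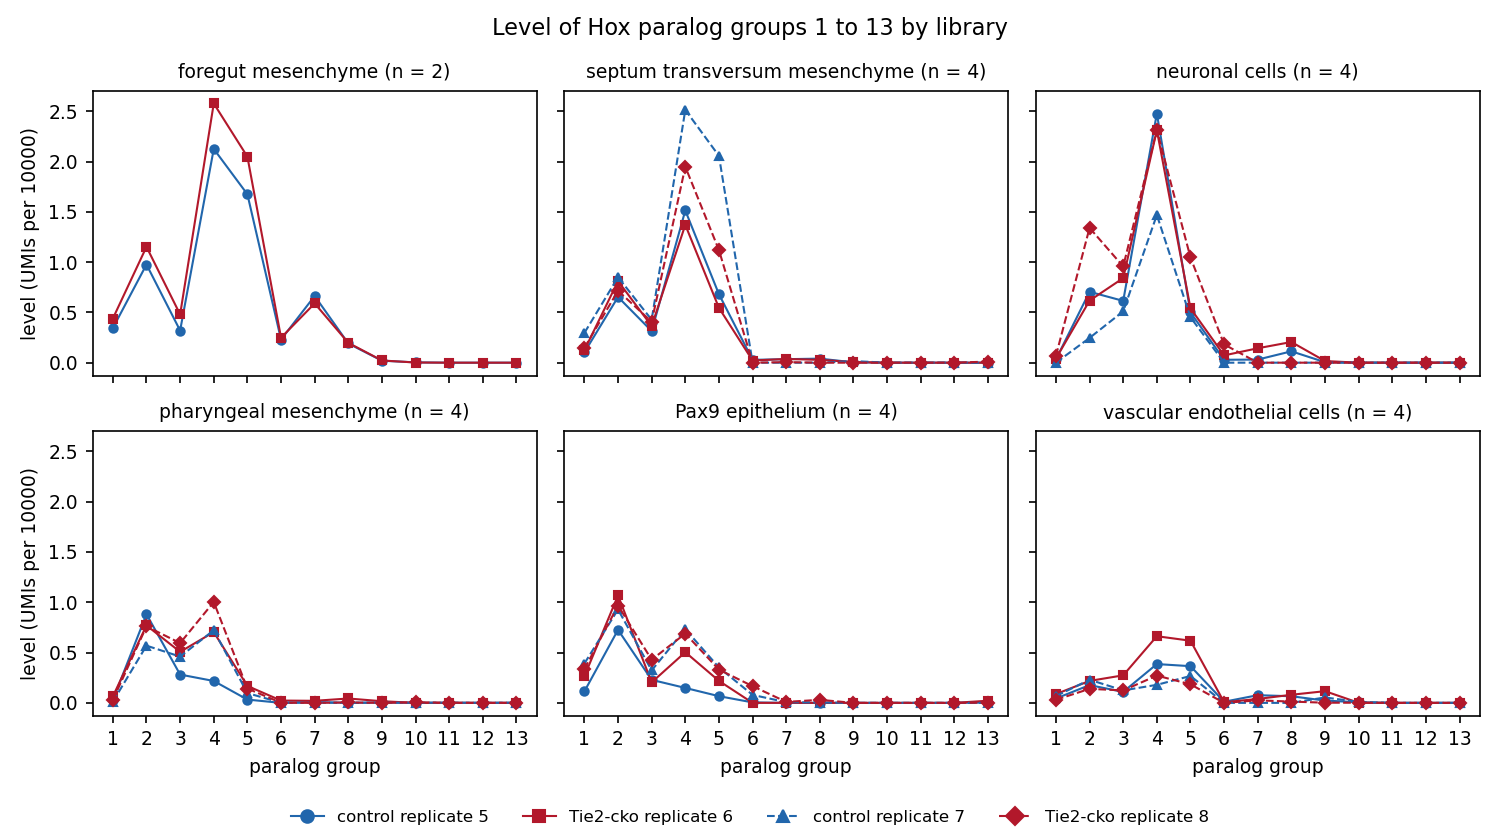
Summed level (UMIs per 10000) of paralog groups 1 to 13 in 6 cell classes, with 1 line per library (solid for libraries 5 and 6, dashed for 7 and 8, blue control, red *Tie2-cko*). Group 4 peaks in foregut mesenchyme, septum transversum mesenchyme and neuronal cells, a further rise at group 7 is seen in foregut mesenchyme, and group 2 leads in *Pax9* epithelium of every library.

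To place this class against the heart, UMI sums of foregut mesenchyme and of cardiac cells were compared within libraries 5 and 6 (edgeR's quasi-likelihood test with the library as a block). Of 24 *Hox* genes tested, 23 were higher in foregut mesenchyme, where 33.5% of all 15667 genes tested were higher. A gene could pass the filter on low counts through its higher class alone, here and in the contrasts that follow, so such counts only describe. Among the 18 genes the differences were largest for *Hoxb6* (log2 difference 8.01 ± 0.204 SE), *Hoxa7* (7.83 ± 0.134) and *Hoxa5* (7.59 ± 0.0800). They were smaller for *Hoxb2* (3.91 ± 0.0690) and *Hoxb4* (5.26 ± 0.0630), the genes that cardiac cells expressed most. The adjusted p of these 5 was between 4.83e-32 and 1.75e-23. With libraries 5 and 6 only, such values rest mostly on the spread that edgeR shares over genes, not on replication. *Hoxa6* had 63 of its 77 UMIs in foregut mesenchyme and 1 in cardiac cells. *Hoxa10* did not pass (1.43 ± 0.808, adjusted p = 0.116), and the call of *Hoxd3* (2.91 ± 0.942) was lost with DESeq2. Genotype cannot be tested in this class, which had 1 library per genotype. With no replicate, the summed level was 6.55 in the control and 7.75 in the *Tie2-cko* library.

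Septum transversum mesenchyme, the sheet between heart and liver from which the proepicardium and liver stroma arise, had 418, 461, 28 and 119 cells in libraries 5 to 8. Its *Hox* genes passed 0.05 up to group 5, and each of groups 6 to 8 stayed between 0 and 0.0403 in every library. *Hoxb4* was even over the libraries at 0.752, 0.817, 0.669 and 0.645 UMIs per 10000, and so was *Hoxb2* at 0.544, 0.697, 0.753 and 0.495. *Hoxa5* stood at 0.486 and 0.334 in libraries 5 and 6 but at 1.83 and 0.975 in libraries 7 and 8. *Hoxa4* likewise stood at 0.471 and 0.332 against 1.54 and 0.934. For both genes the libraries with less tissue around the heart were the higher ones, in each genotype, on 28 and 119 cells. *Hoxc4* was 0.226, 0.189, 0.302 and 0.369, and *Hoxb1* 0.0633, 0.0622, 0.142 and 0.106. Against epicardial cells, the heart's outer layer, all 12 *Hox* genes tested were higher in septum transversum mesenchyme (all genes: 16.6%). *Hoxa4* differed by 6.92 ± 0.470 (SE, log2, adjusted p = 2.36e-07), *Hoxc4* by 6.46 ± 0.405 (adjusted p = 1.18e-07) and *Hoxb2* by 2.42 ± 0.129 (adjusted p = 2.88e-08).

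Neuronal cells numbered 73, 77, 14 and 19. *Hoxb4* led in each library, at 1.65, 1.51, 1.38 and 2.03 UMIs per 10000, and its mean of 1.64 was the highest that any *Hox* gene had in any class. *Hoxb3* (0.261, 0.50, 0.464 and 0.767), *Hoxb5* (0.294, 0.323, 0.343 and 0.867) and *Hoxb2* (0.560, 0.494, 0.121 and 0.924) followed. The *Hoxb* cluster made up 75.1% of the *Hox* level in these cells. *Hoxb1*, which marks the fourth hindbrain segment, had 0 UMIs in all 183 cells, which allows a level of up to 0.00785 UMIs per 10000 (3 counts of the total). *Hoxa7* also had 0 UMIs in these cells, with the same limit, although foregut mesenchyme held it at 0.508. Against cardiac cells all 11 *Hox* genes tested were higher (all genes: 11.8%), by 8.38 ± 0.617 (SE, log2) for *Hoxd4* (adjusted p = 1.64e-09), 7.78 ± 0.654 for *Hoxb5* (adjusted p = 1.13e-08) and 5.83 ± 0.240 for *Hoxb4* (adjusted p = 8.78e-13). DESeq2 called 17, and a fit without the filter on low counts 18.

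Pharyngeal mesenchyme, named for its likeness to the mesenchyme of the arches, had 527, 72, 414 and 590 cells. Its cluster also held 4 markers of the skeletal muscle and somite list. The *Hox* set of this class was more anterior, with a level-weighted mean paralog group of 3.07. This mean was 3.72 in septum transversum and 4.20 in foregut mesenchyme. *Hoxb2* stood at 0.391, 0.535, 0.321 and 0.490 UMIs per 10000 and *Hoxa2*, the gene that gives the second arch its identity, at 0.490, 0.235, 0.248 and 0.270. *Hoxa3*, needed for derivatives of the more caudal arches, was even at 0.137, 0.179, 0.152 and 0.178. Library 5 differed from the others in its more caudal genes. There, groups 4 to 8 summed to 0.260, against 0.823 to 1.15 in libraries 6 to 8, while groups 1 to 3 summed to 1.19 and lay within the range of the other libraries (1.04 to 1.38). Of its cells with a *Hox* UMI, 79.8% had no gene above group 3 after thinning, compared with 41.2% to 44.1% in libraries 6 to 8. Against cushion MCs, the mesenchyme inside the heart, all 8 *Hox* genes tested were higher in pharyngeal mesenchyme (all genes: 23.1%). *Hoxd4* differed by 7.08 ± 0.357 (SE, log2, adjusted p = 2.35e-08), *Hoxd3* by 6.05 ± 0.328 (adjusted p = 4.26e-08) and *Hoxa2* by 5.08 ± 0.165 (adjusted p = 9.13e-10).

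The *Hoxd* cluster had its own distribution. *Hoxd4* stood at 0.0210, 0.127, 0.374 and 0.385 in pharyngeal mesenchyme and at 0.576, 0.494, 0.0465 and 0.0508 in neuronal cells of libraries 5 to 8. *Hoxd3* stood at 0.0184, 0.0130, 0.119 and 0.151 in pharyngeal mesenchyme and at 0.310, 0.272, 0.0465 and 0 in neuronal cells. Thus in libraries 5 and 6 neurons were the higher class for both genes, and in libraries 7 and 8 the mesenchyme was. The crossing was not tested, and the neurons of libraries 7 and 8 numbered 14 and 19. In foregut mesenchyme *Hoxd4* was at 0.0175 and 0.0159, and *Hoxd3* had 0 UMIs in 2734 EdCs, in 840 cells of *Pax9* epithelium and in 2487 red blood cells, which allows levels of up to 0.000622, 0.00254 and 0.000347. Over the 16 classes, *Hoxd3* and *Hoxd4* were each other's nearest neighbour among the 18 genes (Spearman's rho 0.785 across classes, which share libraries). *Hoxa7* was the gene least like the rest, with rho of at most 0.397 to any other member.

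**Figure D4:**
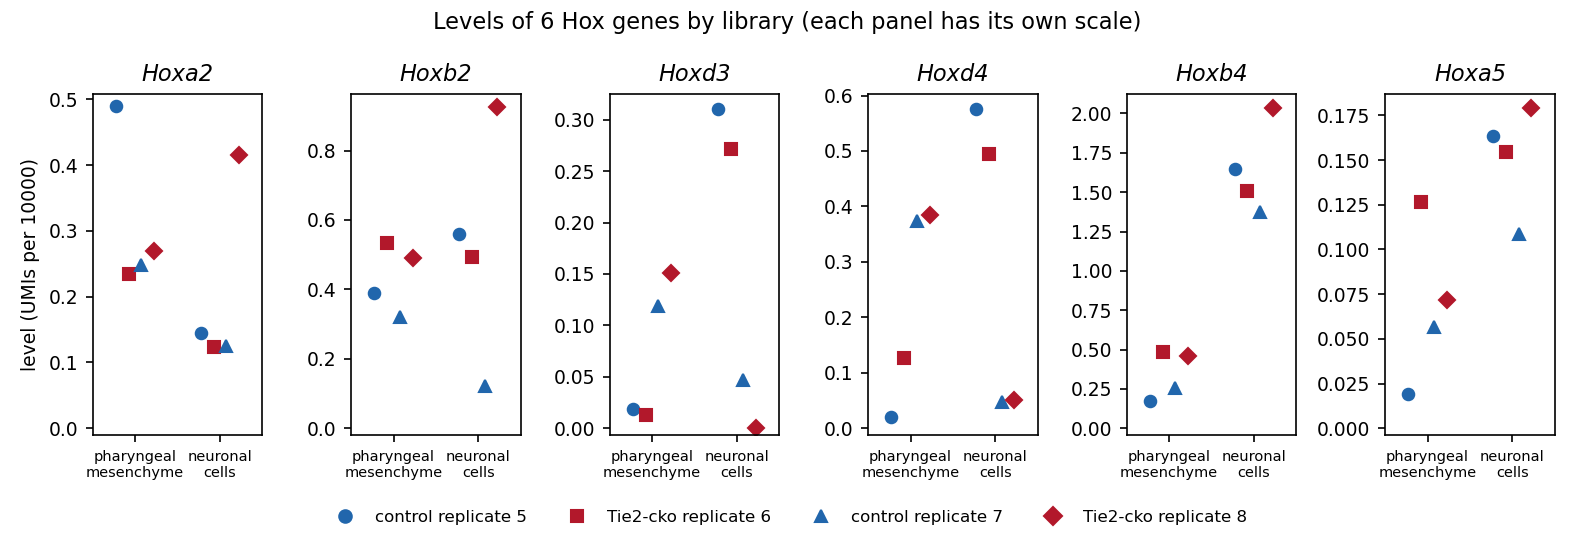
Levels (UMIs per 10000, each panel with its own axis) of *Hoxa2*, *Hoxb2*, *Hoxd3*, *Hoxd4*, *Hoxb4* and *Hoxa5* in pharyngeal mesenchyme and neuronal cells, with 1 symbol per library. *Hoxb4* is higher in neuronal cells of every library, and for *Hoxd3* and *Hoxd4* the order of the classes turns between libraries 5 and 6 and libraries 7 and 8.

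Epithelial cells fell into a *Pax9* cluster present in every library (250, 30, 241 and 319 cells) and other clusters with *Nkx2-1* or *Nepn* among their leading genes, which libraries 5 and 6 held (255 and 257 cells, against 4 and 5). In *Pax9* epithelium, which resembles the pharyngeal endoderm, *Hoxb2* led at 0.562, 0.885, 0.606 and 0.712 UMIs per 10000. *Hoxb1* stood at 0.0805, 0.235, 0.365 and 0.298, against 0.272 and 0.313 in foregut mesenchyme and 0.00522 and 0.0111 in the other epithelium of libraries 5 and 6. For *Hoxb1*, *Pax9* epithelium of both libraries 5 and 6 thus lay below foregut mesenchyme and above the other epithelium. *Hoxb6* was 0.00310 and 0 in libraries 5 and 6, and 0.0758 and 0.164 in libraries 7 and 8. The other epithelium carried *Hoxc4* at 0.200 and 0.237, as much as *Hoxb2* there (0.181 and 0.316). *Hoxa7* and *Hoxd3* had 0 UMIs in *Pax9* epithelium. Taking both epithelia together against cardiac cells, 14 of 15 *Hox* genes tested were higher (all genes: 29%), by 6.42 ± 0.917 (SE, log2) for *Hoxb1* (adjusted p = 0.000750), 6.31 ± 0.465 for *Hoxc4* (adjusted p = 3e-05) and 5.76 ± 0.264 for *Hoxa3* (adjusted p = 3.93e-06). *Hoxc6* did not pass (0.07 ± 0.567, adjusted p = 0.952). The calls of *Hoxb6* and *Hoxb7* were lost when doublets were kept.

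Vascular endothelial cells and EdCs, both endothelial, differed in their *Hox* genes. *Hoxa5* stood at 0.265, 0.425, 0.267 and 0.176 UMIs per 10000 in vascular endothelial cells (92, 71, 66 and 96 cells) and at 0.00698, 0.00810, 0.00371 and 0.0138 in EdCs. *Hoxb4* stood at 0.314, 0.369, 0.141 and 0.211 against 0.0380, 0.0515, 0.0295 and 0.0234. The ranges did not overlap for either gene, and the share of all genes without overlap was not counted. All 8 *Hox* genes tested were higher in vascular endothelial cells (all genes: 10.7%), with *Hoxa5* at 4.92 ± 0.362 (SE, log2, adjusted p = 8.46e-07), *Hoxa3* at 4.16 ± 0.388 (adjusted p = 6.64e-06) and *Hoxb4* at 2.55 ± 0.203 (adjusted p = 1.67e-06). With coarser clusters (resolution 0.4) 5 *Hox* genes passed the filter and 2 were called, and *Hoxb2*, *Hoxb3* and *Hoxb4* lost their calls. The cluster with the vascular name there held 334, 189, 472 and 496 cells and 9 EdC markers, with *Nfatc1* among its leading genes. *Hoxa9*, a gene of haematopoietic and endothelial progenitors, was found here at 0.0229, 0.116, 0.0540 and 0.00171, in cushion MCs at 0.0187, 0.00550, 0.00806 and 0.00850, and in macrophages at 0.0136, 0.00257, 0 and 0.0383. It had 0 UMIs in epithelial, neuronal and red blood cells. *Hoxa10* was concentrated in cushion MCs, with 46.3% of its 67 UMIs (0.0176, 0.00462, 0.00311 and 0.00457). These counts are low, and library 5 held the highest value of both genes in cushion MCs.

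Within the heart, a short list of 3′ genes made up most of the signal. *Hoxb2*, *Hoxb4* and *Hoxb3* held 68.1% of the *Hox* level of cardiac cells, and the *Hoxb* cluster 73.1%. The same genes led in red blood cells, with 50.9% of the level, against 52.8% in chamber CMs. Cushion MCs held 1.67 to 4.85 times the *Hox* UMIs per cell of red blood cells in the same library. The ratio was 2.39 to 7.44 in EdCs and 4.91 to 13.1 in *Shox2* CMs. The part of free RNA in these profiles was not tested. *Shox2* CMs, with *Shox2* (a gene of the sinus venosus and pacemaker region) among their leading genes, were the CM cluster with the highest level. *Hoxb2* stood there at 0.117, 0.167, 0.0995 and 0.100 UMIs per 10000, against 0.0185, 0.0242, 0.00986 and 0.0145 in chamber CMs. *Hoxb4* stood at 0.124, 0.218, 0.0641 and 0.0454, against 0.0103, 0.00889, 0.00203 and 0.00369. Neither gene overlapped between the CM classes, and the share of all genes without overlap was not counted. Of 8 *Hox* genes tested 6 were higher in *Shox2* CMs than in chamber CMs (all genes: 29.9%), with *Hoxb4* at 3.88 ± 0.263 (SE, log2, adjusted p = 8.45e-07), *Hoxb3* at 3.0 ± 0.237 (adjusted p = 2.39e-06) and *Hoxb2* at 2.79 ± 0.157 (adjusted p = 2.85e-07). These 3 kept their calls in every alternative, whereas *Hoxa2*, *Hoxa4* and *Hoxc6* lost theirs in 2 to 6 of them, and 3 genes were called when doublets were kept. *Bmp4* CMs showed 5 of 7 tested genes higher than chamber CMs (all genes: 28.6%). The same *Hoxb* genes led, with *Hoxb3* at 2.73 ± 0.25 (adjusted p = 6.17e-07), *Hoxb4* at 2.73 ± 0.363 (adjusted p = 2.11e-05) and *Hoxb2* at 2.23 ± 0.156 (adjusted p = 4.49e-08). These 3 kept their calls in every alternative, whereas *Hoxa2* lost its call in 5 of 12 and *Hoxa3* when doublets were kept. *Hoxa5* did not pass in either CM contrast (0.87 ± 0.40 and -0.15 ± 0.487). The *Shox2* cluster had 9 of 9 CM markers present. Its 10 leading genes held 1 limb marker, *Shox2* itself, and no listed CM marker. The *Bmp4* cluster had no listed CM marker among its 10 leading genes either.

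The *Hox* signal of a whole library differed between the libraries, as did their tissue around the heart. Summed over all kept cells the level was 0.986 and 1.81 UMIs per 10000 in libraries 5 and 6, and 0.284 and 0.463 in libraries 7 and 8. In cardiac cells alone it was 0.145 and 0.159, and 0.0781 and 0.103. The share of *Hox* UMIs outside cardiac cells was 87.7% in library 5 (95% Clopper-Pearson interval 87.1 to 88.2, for counting error only), 94.0% in library 6 (93.7 to 94.3), 73.4% in library 7 (71.8 to 75.0) and 75.5% in library 8 (74.4 to 76.6). Foregut mesenchyme supplied 41.4% and 48.6% of the *Hox* UMIs of libraries 5 and 6, and septum transversum mesenchyme 16.8% and 26.3%. In libraries 7 and 8 pharyngeal mesenchyme supplied 32.8% and 34.5% and *Pax9* epithelium 27.3% and 21.8%. Between genotypes, the level over all cells averaged 0.635 in control and 1.14 in *Tie2-cko* libraries, and the level in cardiac cells 0.112 and 0.131. The *Tie2-cko* library was the higher for all 3 measures both among libraries 5 and 6 and among libraries 7 and 8. The exact permutation test, two-sided, gave p = 0.667 for each of them with 2 libraries per genotype, a design in which p cannot fall below 0.33.

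**Figure D5:**
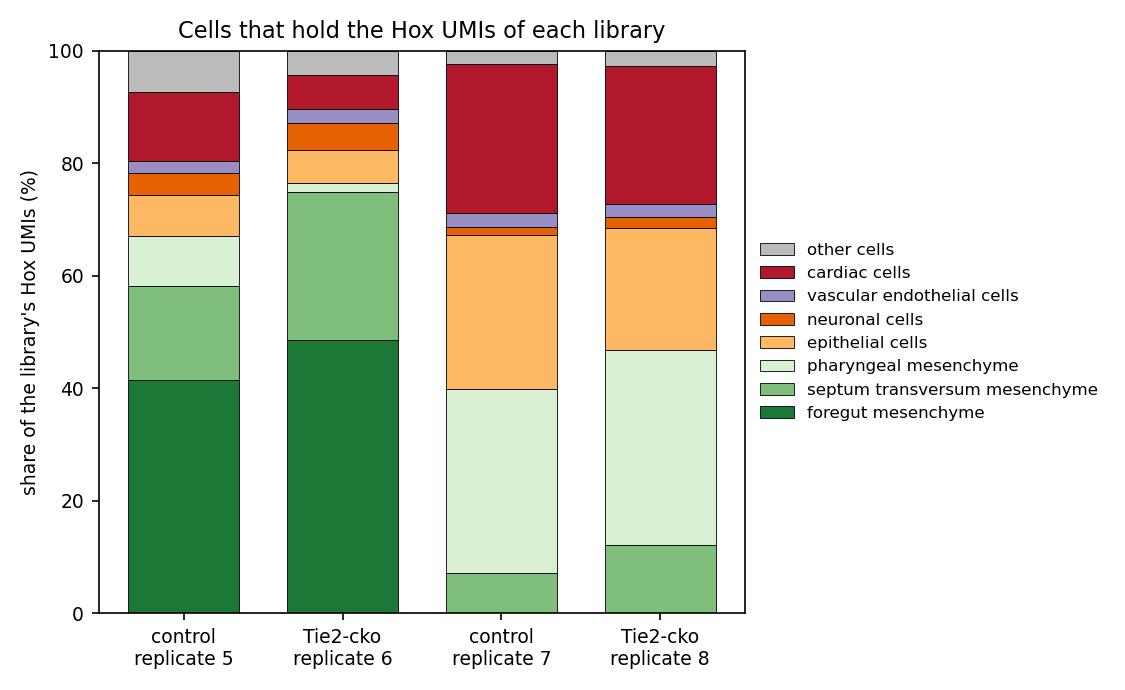
Share of each library's *Hox* UMIs (%, stacked to 100) by the cells that hold them, for the control and *Tie2-cko* libraries, with cardiac cells in red. Foregut and septum transversum mesenchyme fill most of libraries 5 and 6, and cardiac cells fill 12.3% and 6.0% there but 26.6% and 24.5% of libraries 7 and 8.

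To ask whether loss of endocardial *Tie2* changed any *Hox* gene, control and *Tie2-cko* libraries were compared in 13 cell classes. No *Hox* gene was called in any of them by edgeR's quasi-likelihood test (adjusted p of 0.05), nor by DESeq2. The number of *Hox* genes tested by edgeR was 14 in CMs (all genes called: 0%), 6 in EdCs (0.00797%), 4 in cushion MCs (0%), 3 in epicardial cells (0.0334%), 14 in epithelial cells (0.0245%), 9 in neuronal cells (0%), 11 in pharyngeal mesenchyme (0%), 14 in septum transversum mesenchyme (0%), 8 in vascular endothelial cells (0.0328%), 13 in *Pax9* epithelium (0.054%), 12 in chamber CMs (0%), 3 in *Shox2* CMs (0%) and 3 in *Bmp4* CMs (0%). At an unadjusted p of 0.05 edgeR gave 5 genes in pharyngeal mesenchyme and 1 each in EdCs, epithelial cells and *Pax9* epithelium, and DESeq2 gave 4 in pharyngeal mesenchyme and 0 in the others. The share of all genes under this p is not shown here, so these counts only describe. In EdCs, the cells that lost *Tek*, *Hoxa5* was the gene in question. Its levels were 0.00698 and 0.00371 in control and 0.00810 and 0.0138 in *Tie2-cko* libraries, a log2 difference of 1.57 ± 0.461 (SE, adjusted p = 0.888). With a block for libraries 5 and 6 against 7 and 8 its adjusted p was 0.0309, on 47 UMIs in all. The share of all genes passing in that fit is not shown here.

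In pharyngeal mesenchyme *Hoxb4* was 0.176 and 0.254 in the controls, against 0.485 and 0.459 in *Tie2-cko* (log2 difference 1.23 ± 0.284, adjusted p = 1). *Hoxb3* was 0.126 and 0.188 in control and 0.316 and 0.265 in *Tie2-cko* libraries (0.97 ± 0.295, adjusted p = 1). The genotypes did not overlap for either gene, the ones with the lowest unadjusted p among the *Hox* genes tested there. With 2 libraries per genotype this only describes, and the share of all genes without overlap was not counted. *Hoxa2* was 0.490 and 0.248 in control and 0.235 and 0.270 in *Tie2-cko* libraries (-0.73 ± 0.310, adjusted p = 1), where the genotypes overlapped. With the block, *Hoxb4* (adjusted p = 1.78e-05) and *Hoxb3* (adjusted p = 0.0121) passed, and without the filter on low counts *Hoxb4* did (adjusted p = 0.000550). The share of all genes passing in these fits, and in the fits with a library left out, is not shown here. Such calls only describe. Without library 7, which leaves library 5 as the only control, 6 genes passed (*Hoxd3*, *Hoxd4*, *Hoxa4*, *Hoxb4*, *Hoxb3* and *Hoxc4*). Library 5 is the library whose pharyngeal mesenchyme carried few genes of groups 4 to 8, and the part of that composition in these differences was not tested. In epicardial cells *Hoxa5* passed without library 8 (3.04 ± 0.768, adjusted p = 0.0160), on levels of 0.00517 and 0 in control and 0.0350 in library 6.

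The genes known to act with or on *Hox* genes were followed in the same fits. The lists held 9 TALE cofactors, 18 retinoic acid genes, 7 upstream factors and 12 chromatin regulators. Between genotypes edgeR tested 6 to 9, 5 to 16, 0 to 3 and 6 to 12 of them per class, in this order. None of the genes tested was called in the 13 classes. An unadjusted p under 0.05 was given to 1 to 3 genes of a list in 6 of the classes, and the share of all genes under it is not shown here. Between classes they differed. In foregut mesenchyme 8 of 9 TALE genes tested were higher and 0 lower than in cardiac cells (all genes: 33.5% higher, 37.2% lower), by 1.53 ± 0.0520 (SE, log2) for *Pbx3* and 1.47 ± 0.0550 for *Meis1*. The median of the list was 1.07, against -0.03 over all genes tested. Of 17 retinoic acid genes tested 11 were higher and 4 lower there (median 0.83). *Stra6*, the retinol uptake receptor, differed by 5.34 ± 0.169, *Crabp2*, a carrier of retinoic acid, by 3.51 ± 0.0790, and *Aldh1a2*, which makes retinoic acid, by 3.25 ± 0.0650, while *Aldh1a1* was lower by 4.37 ± 0.272. The epicardium held the most *Aldh1a2* of the classes, at 0.970 UMIs per 10000, with a summed *Hox* level of 0.196. In septum transversum mesenchyme 8 of 9 TALE genes and 10 of 15 retinoic acid genes tested were higher than in epicardial cells (median 0.68 and 1.68, against 0.02 over all genes), where 16.6% of all genes were higher and 19.3% lower. In pharyngeal mesenchyme 8 of 9 TALE genes were higher and 1 lower than in cushion MCs (median 0.44, all genes: 23.1% and 24.8%). In neuronal cells 1 of 9 TALE genes was higher than in cardiac cells (*Meis3*, by 1.80 ± 0.266) and 1 lower (*Meis1*, -1.21 ± 0.219), with a median of -0.05 and 11.8% and 20.3% over all genes. In vascular endothelial cells, where *Hox* genes were higher, 0 of 8 TALE genes were higher and 3 were lower than in EdCs by edgeR (all genes: 10.7% and 10.1%, and 5 of the 8 had an unadjusted p under 0.05). Among the upstream factors, the Cdx genes were near 0, with *Cdx4* at 0 in all 12 classes read, *Cdx1* at most at 0.0032 (foregut mesenchyme) and *Cdx2* at most at 0.0086 (epithelial cells). Of the chromatin regulators, 7 of 12 were higher and 2 lower in foregut mesenchyme than in cardiac cells (all genes: 33.5% and 37.2%), *Ezh2* by 1.25 ± 0.0430 and *Bmi1* by 1.75 ± 0.0870.

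Non-coding and neighbouring genes of the clusters were read as well. Of 12 listed, 6 reached 0.05 UMIs per 10000 in a class. *Hotairm1*, an RNA read from the 3′ end of the *Hoxa* cluster, stood at 0.684 and 0.750 in foregut mesenchyme of libraries 5 and 6, above all but 4 of the *Hox* genes there. *Hoxb3os* had its highest level in epithelial cells (0.276, 0.165, 0.595 and 0.644), and *Haglr*, next to *Hoxd1*, in neuronal cells (0.0751, 0.125, 0 and 0). The 5′ genes *Hotair*, *Hottip* and *Evx2* had 0 UMIs. Whether counting used the strand is not given in the sources used here, so reads of an antisense gene and of its *Hox* partner cannot be told apart.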

How the data were processed

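Single-cell RNA was counted in 4 libraries of E10.5 hearts, 2 per genotype. The authors deposited filtered matrices of UMI counts per gene and cell, made with Cell Ranger (version 6.1.2 per the file headers) on mm10. The parameters of that step are not given in the sources used here. UMI totals per library ran from 169361996 to 259775540.

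Barcodes under 500 genes or under 1000 UMIs, or with over 10% of UMIs from mitochondrial genes, were dropped, and so were the highest Scrublet doublet scores (scanpy 1.11.5, 0.8% of cells per 1000 cells). Clustering used Seurat 5.3.0 with 2000 variable genes other than *Hox* genes, 30 components and resolution 0.8. A cluster took the name of a list when over 0.6 of the list's markers, at least 3, were present. A marker counted as present when the cluster's mean for it came to at least 25% of the largest mean that any cluster had. Clusters with a median UMI count under 0.333 of their libraries' were left unnamed. These naming conditions, the cardiomyocyte and epithelial sub-classes and 12 comparisons were set after seeing the clusters, and the members and lists were chosen with earlier results of these data known.

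UMI counts were summed per library and class (at least 10 cells) and tested with edgeR 4.0.16 (TMM, filterByExpr, quasi-likelihood, Benjamini-Hochberg over all genes tested, threshold 0.05). Classes were compared with the library as a block. An SE is the size of the log2 difference divided by the square root of F. Foregut mesenchyme was planned over 4 libraries but had at least 10 cells in 2, so its fit used those. Scripts were tested on simulated data. Genes described in every library were those at 0.05 UMIs per 10000 or more in a class. DESeq2 1.42.0, other size factors, no filter, a library block, other clusterings and cell filters, and leaving out each library were tried as alternatives. Some genes are not reported here.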

Additional observations from a re-analysis of the deposited data

How the results depend on the processing

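Of 279 alternative values, 250 kept their direction, gave a similar count of *Hox* genes called or moved by less than the spread. Another 24 moved and 5 reversed. Between genotypes most alternatives compared 0 *Hox* genes called with 0. The main fits there called at most 0.054% of all genes, so such equal counts say little about stability. A similar count can hide lost calls, as for *Hoxb6* and *Hoxb7* in epithelial cells when doublets were kept. The genotype difference in summed *Hox* level over all cells (0.502 UMIs per 10000, *Tie2-cko* minus control) ranged from -0.172 to 1.18 when 1 library was left out, in cardiac cells (0.0192) from -0.0141 to 0.0526, and in the share of *Hox* UMIs outside cardiac cells (4.20 percentage points) from -5.04 to 13.4. It reversed for all 3 measures without library 6 (-0.172, -0.00865 and -5.04), and without library 7 in cardiac cells (-0.0141) and in the share (-2.91). Thinning to 3000 UMIs lowered the share of cells with a *Hox* UMI to 81.0% in foregut mesenchyme, 66.5% in neuronal cells, 60.7% in septum transversum mesenchyme, 40.2% in pharyngeal mesenchyme, 36.0% in epithelial cells, 26.6% in vascular endothelial cells, 4.90% in epicardial cells, 3.26% in EdCs, 3.01% in CMs and 2.84% in cushion MCs, since fewer UMIs were read. Between genotypes, the count of *Hox* genes called was 1 in EdCs and 2 in pharyngeal mesenchyme with the block for libraries 5 and 6 against 7 and 8, 1 in pharyngeal mesenchyme without the low-count filter, and 0 to 1 in epicardial cells and 0 to 6 in pharyngeal mesenchyme with 1 library left out. Between classes, DESeq2 called 17 in neuronal cells, 14 in pharyngeal mesenchyme and 13 in vascular endothelial cells, and no filter gave 18, 15 and 14, and 21 in septum transversum mesenchyme. Resolution 0.4 gave 2 in vascular endothelial cells, and keeping doublets 3 in *Shox2* CMs. Other causes were not tested. The share of all genes passing in each alternative fit is not shown here. With 1 library left out, the lone library of a genotype is taken to be as variable as the other genotype. The stricter cell filter left no cluster named pharyngeal mesenchyme, and foregut mesenchyme, with 2 libraries, could not be refitted with 1 left out. No paired analysis was possible because the labels give the genotypes no shared replicate number. The block for libraries 5 and 6 against 7 and 8 rests on their tissue content, not on a labelled pairing. Depth limits genes of groups 9 to 13, with 371 UMIs in all.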

Other observations

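Cells of the 4 unnamed clusters (3974 cells) had medians of 1668 to 1798 UMIs and a summed *Hox* level of 1.63, 2.83, 0.235 and 0.525 UMIs per 10000 in libraries 5 to 8. Among them was a cluster of 1478 cells with *Barx1* and *Foxf1*, both on the foregut mesenchyme list, among its leading genes. Its summed *Hox* level was 3.50, led by *Hoxa5* at 0.624, *Hoxb2* at 0.540 and *Hoxb4* at 0.465.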
